A study of Mus musculus with 6 samples.

Results

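The genes described here are the protein-coding mouse genes whose symbol begins with Kmt, Kdm or Setd, which name the lysine methyltransferases (Kmt and Setd, the writers of histone methylation) and the lysine demethylases (Kdm, the erasers). The Y-linked Kdm5d was left out by the same rule. Of the 49315 gene identifiers counted, 35 were members, 18 in the writer families and 17 in the eraser family. The rule itself used no measured level, but the members were chosen with earlier results of these data known. Symbols were matched to the GENCODE M21 annotation of the mouse genome build GRCm38. All members had counts, and 34 passed the filter on low counts. Kdm4d, an H3K9 demethylase, was not tested, with raw counts of 7, 4 and 6 in WT replicates 1, 3 and 4 and of 5, 2 and 2 in KO replicates 2, 3 and 4.

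Poly(A)-selected RNA of mouse bone marrow was sequenced in 6 libraries. The 3 WT libraries (replicates 1, 3 and 4) came from miR-181a2b2flox/flox animals, in which the microRNA locus is floxed but, by its label, still present. The 3 KO libraries (replicates 2, 3 and 4) came from miR-181a2b2-/- animals, in which the locus is deleted. All animals had received the HFSC diet, an abbreviation that the labels do not expand, and had undergone ischemia of a hindlimb, so that no library stands for an untreated marrow. The labels do not give age or sex. They also do not say whether each library stands for its own animal, and p-values therefore measure the spread between these samples only, which may be technical. Total counts lay between 33861440 and 40359093 a library. The labels name bone marrow as the source but white adipose tissue in the RNA extraction step. All 8 primary granule genes of neutrophil precursors had counts in every library, whereas only 5 of 8 adipocyte genes did, with a summed level of 18.3 to 41.28 CPM (counts scaled to a common library total) in any library. The members together took 0.381% to 0.435% of the counts of a WT library and 0.302% to 0.388% of those of a KO library.

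Histone tails carry methyl groups on lysines, and the position of the lysine sets how the mark is read. Methylation of histone H3 at lysine 4 (H3K4) marks active promoters and enhancers, H3K36 methylation marks transcribed gene bodies, and H3K9, H3K27 and H4K20 methylation accompany silent or compacted chromatin. Most writers use a SET domain, and most erasers a jumonji (JmjC) domain, apart from the flavin-dependent Kdm1a and Kdm1b. In blood formation, Kmt2a sustains the stem cell programme and is broken by translocations in leukaemia, and Setd2 and Kdm6a act as tumour suppressors in leukaemia. Kdm1a works with the repressor Gfi1 in granulocyte differentiation.

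The deleted locus encodes a pair of microRNAs that share a seed, and the mature forms are shown first because messenger RNAs are matched to them through it. Sequences are from RefSeq (GRCm38.p6), 5′ to 3′, with the seed, bases 2 to 8, in capitals. miR-181a-5p lies at chr2:38852741-38852763 and miR-181b-5p at chr2:38853845-38853868, both on the plus strand.
mmu-miR-181a-5p: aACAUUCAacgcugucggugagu
mmu-miR-181b-5p: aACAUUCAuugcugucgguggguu

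An 8mer site pairs with the whole seed and has an A opposite base 1 of the microRNA, and a 7mer lacks one end of it. In the 3′ UTR of the transcript with the longest coding sequence of each gene, 8 of the 34 tested members held at least 1 8mer or 7mer site, or 23.5%, against 20.9% of the 13507 tested genes with a 3′ UTR. They were Kmt2a, Kmt2b, Kmt5b, Kdm1b, Kdm5a, Kdm5b, Kdm7a and Kdm8. The sites of 3 of them, whose levels are described with the other members of their class, are shown with 10 bases on either side and the match in capitals (GENCODE M21, GRCm38). Kmt2a alone held 8mers, at chr9:44804563-44804570 and chr9:44803479-44803486, with a 7mer between them at chr9:44803929-44803935, all on the minus strand. The Kmt2b site lies at chr7:30569056-30569062 on the minus strand, and the Kdm5a sites at chr6:120440642-120440648 and chr6:120441242-120441248 on the plus strand.
Kmt2a first 8mer: aatcttttaaTGAATGTAtctttctaaa
Kmt2a 7mer: cttccggttaTGAATGTtggggtcacc
Kmt2a second 8mer: tacgaaagacTGAATGTAaaagtaaaaa
Kmt2b 7mer: ctgtccatggTGAATGTgggcatgtag
Kdm5a first 7mer: tagtcagtgcTGAATGTtttgtatgtc
Kdm5a second 7mer: ttatgttgttTGAATGTgttgctgtgc

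The members with and without such sites had nearly the same median. The median log2 fold change, KO minus WT, was -0.20 with sites and -0.22 without. Over all tested genes the medians were -0.05 with and 0.02 without a site. Kmt2a, with the most sites, had the lowest log2 fold change of all members. The 8 members with sites also had long 3′ UTRs, with a median of 3312 bases against 1034.5 over the tested members.

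Levels were compared between genes per length, as RPKM (CPM divided by the summed exon length in kilobases). Kmt5a, which places the first methyl group on H4K20, had the highest mean level, at 48.1 RPKM over the 6 libraries. It was followed by Kdm7a, an H3K9 and H3K27 demethylase, at 35.2 RPKM, Kdm6b, an H3K27 demethylase, at 22.3 RPKM, and Kmt5c, which adds further methyl groups to H4K20, at 21.7 RPKM. Kdm6b and Kmt5c did not differ beyond their spread, since the libraries of each reached past the mean of the other. The median of the 34 tested members was 8.79 RPKM, and over all genes tested it was 3.66 RPKM. Writers and erasers were alike in level, with medians of 8.95 and 8.26 RPKM. Setd4, a SET-domain gene of unsettled substrate, was the lowest tested member at 0.713 RPKM.

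**Figure D1:**
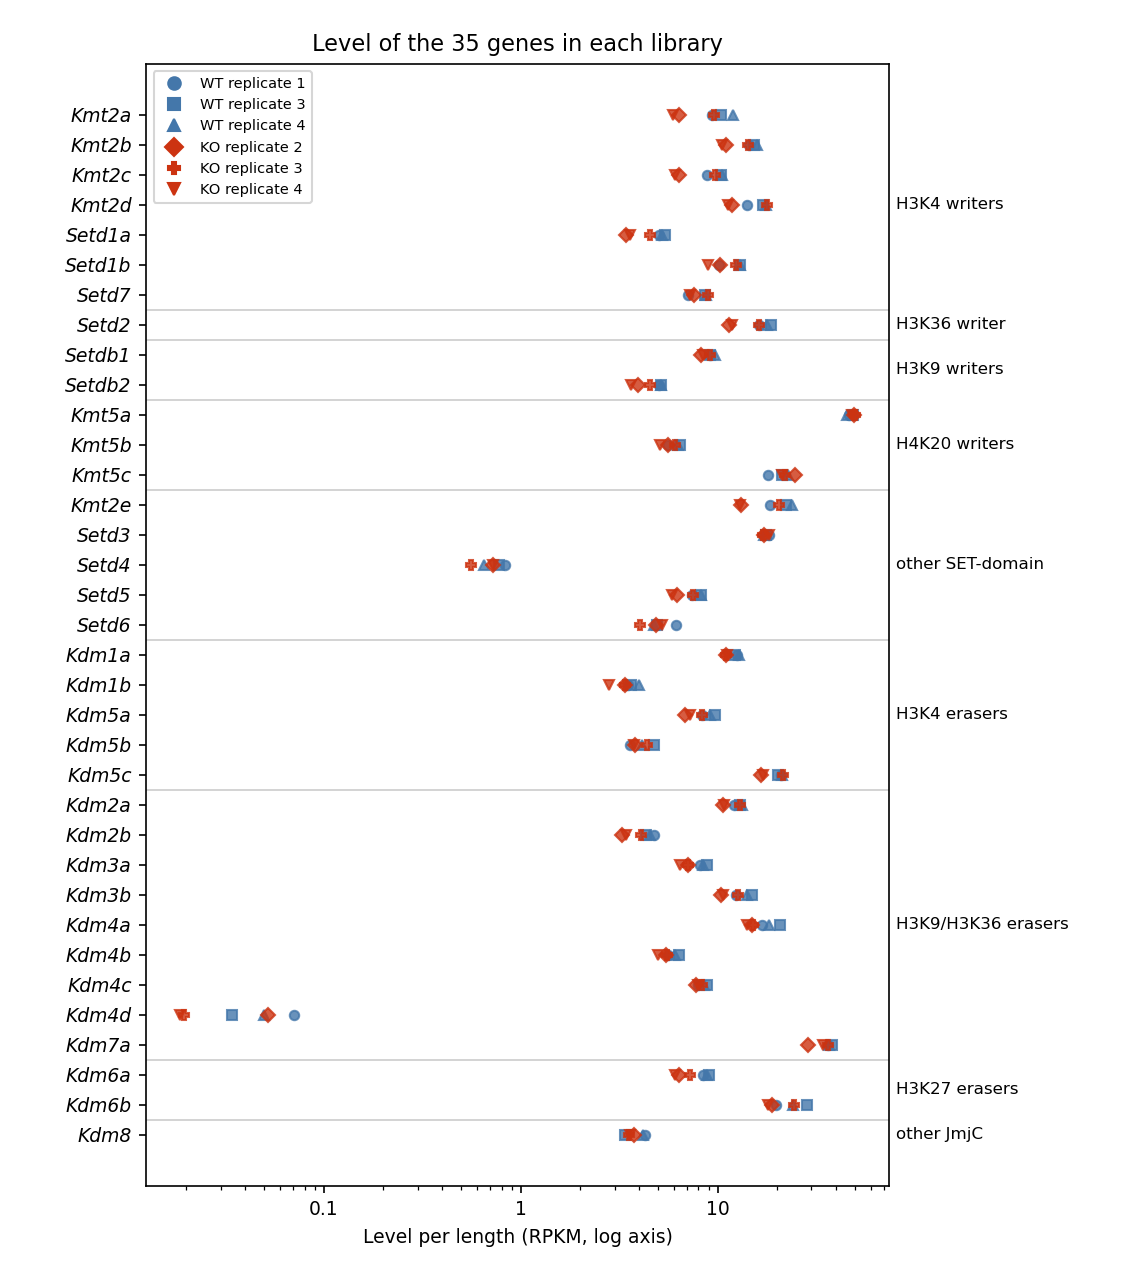
Level of each of the 35 genes (RPKM, log axis) in each of the 6 libraries, grouped by the residue that the enzyme acts on, with WT in blue, KO in red and a symbol for each replicate. Kmt5a has the highest level, at a mean of 48.1 RPKM, and the untested Kdm4d the lowest, while the WT and KO symbols of most genes overlap or lie next to each other.

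The members were lower in the knockout as a group, by small amounts, and 1 passed the test. Kdm6a (also called Utx), an H3K27 demethylase, fell to 74.5% of its WT level. No member rose. Of the 34 tested members, 32 had a negative log2 fold change, and the values ran from -0.53 for Kmt2a to 0.13 for Kmt5c. Their median was -0.21, against -0.01 over all 16956 genes tested, of which 8664 were negative. With an adjusted p under 0.05 in edgeR's quasi-likelihood test, 1 of 34 members was lower and 0 were higher, and over all genes 1.52% were called lower and 0.938% higher. The called share among members was thus near the background. At an unadjusted p under 0.05 in edgeR, 15 members were lower and 0 higher, against 12.2% and 11.7% of all genes. In 11 members every KO library lay below every WT library, against 14.7% of all genes, and in 0 members every KO library lay above, against 14.4%.

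**Figure D2:**
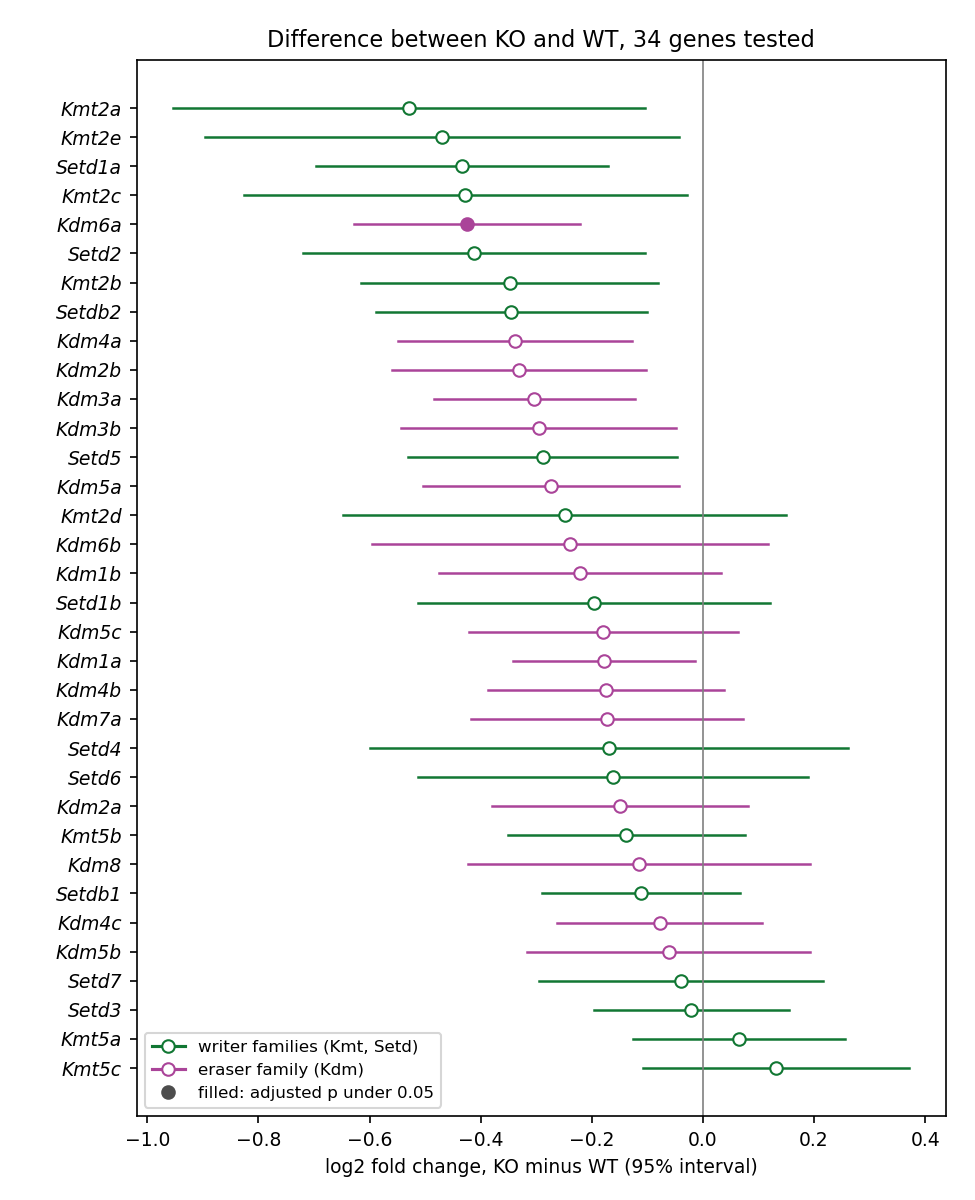
log2 fold change, KO minus WT, of each of the 34 tested genes with its 95% interval from edgeR, writers in green and erasers in purple, ordered by value. Of the 34 points 32 lie below 0, the filled point is Kdm6a at -0.42, and the widest intervals at the top belong to Kmt2a, Kmt2e and Kmt2c.

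Of the H3K4 writers, 7 members, 0 passed the test in edgeR, 4 had an unadjusted p under 0.05 and all 7 had negative values, with a median log2 fold change of -0.35. Over all genes 12.2% were lower at an unadjusted p under 0.05 in edgeR and 51.1% had negative values. The largest difference of any member was in Kmt2a (Mll1), the catalytic subunit of a COMPASS complex recruited by menin. The levels of Kmt2a were 156, 173 and 199 CPM in WT replicates 1, 3 and 4 and 106, 160.2 and 99.4 CPM in KO replicates 2, 3 and 4. KO replicate 3 lay above the lowest WT library, and the other KO libraries lay far below all of WT. The mean of Kmt2a was 122 ± 33.3 CPM over the KO libraries and 176 ± 21.9 CPM over the WT libraries (SD, n = 3 each). For Kmt2a the difference on the log2 scale was -0.53 ± 0.18 (SE), with an interval of -0.95 to -0.10 and an adjusted p of 0.138 in edgeR. Kmt2a spans chr9:44803355-44881296, and its exons sum to 16670 bases.

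Setd1a, the catalytic subunit of the complex that places most H3K4 trimethylation, was the H3K4 writer with the smallest p. Its levels were 34.1, 36.6 and 35.7 CPM in WT and 23.3, 31.0 and 24.5 CPM in KO. The groups did not overlap, with KO replicate 3 the nearest to WT. The log2 fold change of Setd1a was -0.43 ± 0.12 (SE), with an adjusted p of 0.0788 in edgeR. Kmt2b, the closest relative of Kmt2a, also had KO replicate 3 nearest to WT, at 138, 148 and 152 CPM in WT and 106, 137 and 102 CPM in KO. The Kmt2b groups came close but did not overlap, and its log2 fold change was -0.35 ± 0.12 (SE; adjusted p = 0.125 in edgeR).

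Kmt2c and Kmt2d (Mll3 and Mll4) monomethylate H3K4 at enhancers and had the longest transcripts of the members. The levels of Kmt2c were 179, 210.2 and 214 CPM in WT and 129, 196 and 124 CPM in KO. KO replicate 3 again fell inside the WT range, and the log2 fold change was -0.43 ± 0.17 (SE; adjusted p = 0.184 in edgeR). Kmt2d, the most abundant H3K4 writer per length at a mean of 15.0 RPKM, had 280.2, 339 and 352 CPM in WT. In KO its levels were 237, 354 and 226 CPM, so that KO replicate 3 was the highest of all 6 libraries. Its log2 fold change was -0.25 ± 0.18 (SE; adjusted p = 0.422 in edgeR). Setd1b, the paralog of Setd1a, had a log2 fold change of -0.20 and Setd7, which monomethylates H3K4 and other proteins, had -0.04, with adjusted p of 0.429 and 0.864 in edgeR.

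The 250 bases before the RefSeq start of Kmt2a are shown because its protein binds promoters rich in CpG, and its own promoter window held 36 CpG dinucleotides. They lie at chr9:44881290-44881539 on the minus strand (GRCm38.p6) and hold 4 copies of the GC box GGGCGG on either strand, in capitals.
Kmt2a: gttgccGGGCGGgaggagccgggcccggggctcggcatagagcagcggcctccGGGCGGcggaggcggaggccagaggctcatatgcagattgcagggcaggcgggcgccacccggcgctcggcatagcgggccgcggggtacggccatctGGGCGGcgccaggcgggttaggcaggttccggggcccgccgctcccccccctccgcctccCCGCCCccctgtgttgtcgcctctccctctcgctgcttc

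Setd2, the enzyme that trimethylates H3K36 behind elongating RNA polymerase II, had 174, 199.8 and 193 CPM in WT and 123, 175 and 128 CPM in KO. KO replicate 3 just passed the lowest WT library, and KO replicates 2 and 4 were well below it. The log2 fold change of Setd2 was -0.41 ± 0.14 (SE), with an interval of -0.72 to -0.10 and an adjusted p of 0.119 in edgeR. At a mean of 15.4 RPKM, Setd2 stood beside Kmt2d in level per length, and the libraries of these genes overlapped.

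The H3K9 writers of this set, Setdb1 and Setdb2, differed in spread as well as in size. Setdb2 had 20.5, 20.8 and 20.9 CPM in WT, which are nearly equal, and 16, 18.4 and 14.7 CPM in KO, all lower. This gave a log2 fold change of -0.345 ± 0.11 (SE; adjusted p = 0.106 in edgeR). Setdb1, which silences endogenous retroviruses with Trim28, was the more abundant per length, at a mean of 8.98 RPKM. Its levels were 62.8, 62.5 and 66.4 CPM in WT and 56.8, 62.6 and 58.0 CPM in KO, with KO replicate 3 inside the WT range. The difference of -0.11 ± 0.08 (SE) on the log2 scale had an adjusted p of 0.421 in edgeR.

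The H4K20 writers held the only positive values among the members. The levels of Kmt5a were 248, 258 and 242 CPM in WT and 263, 265 and 255 CPM in KO, and the groups overlapped. The log2 fold change of Kmt5a was 0.06 ± 0.09 (SE; adjusted p = 0.683 in edgeR). Kmt5c had 71.9, 84.9 and 91.6 CPM in WT and 98.7, 88.0 and 85.3 CPM in KO, with a log2 fold change of 0.13 ± 0.11 (SE; adjusted p = 0.489 in edgeR). Kmt5b, the partner of Kmt5c in adding further methyl groups, had -0.14, with an adjusted p of 0.409 in edgeR. These directions depend on the scaling or the design, since Kmt5a was at -0.01 with library totals as the only scaling and Kmt5c at -0.03 (-0.025) with the replicate number as a block.

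The other SET-domain genes are grouped with the writers by name, although Kmt2e has no settled methyltransferase activity and Setd3 methylates a histidine of actin. Kmt2e (Mll5), which binds H3K4 trimethylation and is needed for normal blood stem cells, had 192, 234 and 249.5 CPM in WT and 138, 214 and 136 CPM in KO. KO replicate 3 lay between the WT libraries, and the log2 fold change was -0.47 ± 0.19 (SE; adjusted p = 0.175 in edgeR). It was the most abundant of its class by the mean of all libraries, at 18.6 RPKM, but in KO Setd3 was above it, at 17.5 against 15.6 RPKM. Setd5, a relative of Kmt2e, had 137, 151 and 151 CPM in WT and 114, 138 and 108 CPM in KO. The groups of Setd5 met at the lowest WT library, and the log2 fold change was -0.29 ± 0.11 (SE; adjusted p = 0.149 in edgeR). Setd3 was level, at 110.1, 106 and 104 CPM in WT and 104, 103 and 109.6 CPM in KO, with a 95% interval of -0.20 to 0.15. Setd4 and Setd6, the latter a writer on the NF-kB subunit RelA and the shortest member with 1903 exon bases, had log2 fold changes of -0.17 and -0.16, each far from the threshold. The shortest member, Setd6, had 11.7, 9.39 and 9.03 CPM in WT and 9.26, 7.65 and 9.999 CPM in KO, and the groups overlapped in part.

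Among the erasers, Kdm6a of the H3K27 pair had the smallest p. Kdm6a, which also sits in the COMPASS complexes of Kmt2c and Kmt2d, lies on the X chromosome at chrX:18162575-18279936, plus strand. Its levels were 70.8, 76.1 and 74.5 CPM in WT and 53.2, 61.0 and 50.8 CPM in KO. All KO libraries lay below all WT libraries, with KO replicate 3 the nearest to WT. The means of Kdm6a were 73.8 ± 2.71 CPM and 55.0 ± 5.34 CPM (SD, n = 3 each), or 8.81 and 6.56 RPKM. Its log2 fold change was -0.42 ± 0.09 (SE), with an interval of -0.63 to -0.22 and an adjusted p of 0.0474 in edgeR. In bulk marrow, fewer cells of a type and less RNA per cell cannot be told apart. The call of Kdm6a was lost when any library except KO replicate 3 was left out, with adjusted p from 0.0710 (without KO replicate 2) to 0.185 (without KO replicate 4) in edgeR, and with the replicate number as a block, at 0.0777. Over the 16 alternatives run it was called in 8, and its log2 fold change stayed between -0.50 and -0.31.

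The 250 bases before the RefSeq start of Kdm6a, shown because it is the member that passed the test, lie at chrX:18162325-18162574 on the plus strand (GRCm38.p6), with its 1 GC box in capitals.
Kdm6a: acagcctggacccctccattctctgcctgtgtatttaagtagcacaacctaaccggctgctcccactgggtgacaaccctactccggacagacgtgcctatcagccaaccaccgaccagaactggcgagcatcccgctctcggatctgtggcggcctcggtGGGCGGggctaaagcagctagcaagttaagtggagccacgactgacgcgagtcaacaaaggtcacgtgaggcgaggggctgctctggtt

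Promoter windows (250 bases before to 50 after a start) were in the RefSeq table for 27 of the 35 members, in 37 windows, and were compared with all 32851 windows. These came from 27025 genes, whether or not they passed the filter on low counts, and some genes had several windows. A comparison with the windows of tested genes alone was not made. Those of the members were rich in CpG, with a median of 27 CpG dinucleotides against 7, and an observed to expected ratio of 0.878 against 0.384. The GC box GGGCGG was found on either strand in 67.6% of member windows and 35.7% of all windows. The CCAAT box was found in 45.9% and 37.4%. The AP-1 motif TGACTCA was found in 4 of 37 member windows, or 10.8%, against 5.20% of all. These 4 include separate windows of Kdm3a. The cyclic AMP element TGACGTCA was found in 0 of 37, against 1.79% of all. None of these motifs contains another. These are matches of letters in these windows and not measured binding.

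The other H3K27 eraser, Kdm6b (Jmjd3), which is induced in activated macrophages, was the more abundant of the pair per length. It had 138, 199 and 167 CPM in WT and 131, 171 and 125 CPM in KO, in overlap. For Kdm6b the log2 fold change was -0.24 ± 0.16 (SE), with an interval of -0.60 to 0.12 and an adjusted p of 0.387 in edgeR.

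Of the 5 H3K4 erasers, 0 passed the test in edgeR and all had negative values, with a median log2 fold change of -0.18. Kdm1a (Lsd1), which removes methyl groups from H3K4 in the CoREST complex, had the tightest KO libraries of any member. Its levels were 64.8, 63.7 and 66.8 CPM in WT and 57.2, 57.4 and 58.0 CPM in KO, without overlap. The log2 fold change was -0.18 ± 0.07 (SE; adjusted p = 0.179 in edgeR), and KO replicate 3 stood at 0.996 times the mean of the other KO libraries. Kdm5a, a JmjC eraser of H3K4 trimethylation first known as a partner of the retinoblastoma protein, had 117, 137 and 129.9 CPM in WT and 97.2, 118 and 103 CPM in KO. Its groups overlapped by a narrow margin, and its log2 fold change was -0.27 ± 0.10 (SE; adjusted p = 0.149 in edgeR). The X-linked Kdm5c, the most abundant H3K4 eraser per length at 19.6 RPKM, had 149, 145 and 150.3 CPM in WT and 118, 152 and 122 CPM in KO. KO replicate 3 of Kdm5c exceeded every WT library, and the log2 fold change was -0.18 ± 0.11 (SE), with an interval of -0.42 to 0.06. Kdm1b, the relative of Kdm1a, had -0.22 and Kdm5b -0.06, with adjusted p of 0.265 and 0.778 in edgeR.

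The erasers of H3K9 and H3K36 numbered 9, of which 8 were tested, and 0 passed the test in edgeR. All 8 had negative values with a median log2 fold change of -0.23, 4 had an unadjusted p under 0.05, and in 5 every KO library lay below every WT library. Over all genes 51.1% were negative and 12.2% were lower at an unadjusted p under 0.05 in edgeR. In 14.7% of all genes every KO library lay below every WT library. Kdm3a (Jmjd1a), an H3K9 demethylase, had 66.8, 72.9 and 69.7 CPM in WT and 58.5, 57.9 and 53.2 CPM in KO. The groups stood apart and KO replicate 3 was in the middle of KO, with a log2 fold change of -0.30 ± 0.08 (SE; adjusted p = 0.0757 in edgeR). Kdm4a, which acts on H3K9 and H3K36 trimethylation, had 97.7, 119.5 and 106 CPM in WT and 86.2, 87.7 and 81.9 CPM in KO. Its groups did not overlap, and its log2 fold change was -0.34 ± 0.09 (SE; adjusted p = 0.0820 in edgeR). Kdm2b, an H3K36 demethylase that brings a Polycomb complex to CpG islands, had 51.7, 46.8 and 49.2 CPM in WT. In KO it had 35.7, 44.6 and 37.2 CPM, all lower, with a log2 fold change of -0.33 ± 0.10 (SE; adjusted p = 0.102 in edgeR).

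Kdm3b, the relative of Kdm3a, had 176, 210.2 and 199 CPM in WT and 148, 179 and 149.9 CPM in KO. KO replicate 3 passed the lowest WT library, and the log2 fold change was -0.30 ± 0.11 (SE; adjusted p = 0.147 in edgeR). Kdm7a, the most abundant eraser per length, had 368, 386 and 372 CPM in WT and 288, 366 and 344 CPM in KO. All KO libraries of Kdm7a were lower, KO replicate 3 only just, and its log2 fold change was -0.17 ± 0.11 (SE; adjusted p = 0.362 in edgeR). Kdm2a, Kdm4b and Kdm4c, which act on H3K36, on H3K9 and on both, had log2 fold changes of -0.15, -0.17 and -0.08. Kdm8, a JmjC gene whose activity on histones is unsettled, had 10.3, 8.07 and 9.94 CPM in WT and 8.99, 8.52 and 8.59 CPM in KO, with a log2 fold change of -0.11.

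The median log2 fold change was -0.22 for the 18 writers and -0.20 for the 16 tested erasers, values that were set side by side and not tested against each other. Without KO replicate 3 they were -0.36 (-0.3554) and -0.27, and with the trends on exon length and GC content removed they were -0.07 and -0.12, so that the order of the families turned. The mean log2 level of writers minus that of erasers was 0.13, 0.13 and 0.16 in WT replicates 1, 3 and 4 and 0.11, 0.17 and 0.09 in KO replicates 2, 3 and 4. The groups overlapped, and their means differed by -0.02 beside an SD between replicates of 0.0324. Every KO library lay below every WT library in 8 of 16 erasers and 3 of 18 writers, against 14.7% of all genes, and the writers' share is near that background. The difference between the families was not tested. The erasers had the smaller spread, with a median SD between KO libraries of 0.142 on the log2 scale against 0.207 for the writers.

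That spread followed 1 library. KO replicate 3 was the highest KO library in 26 of 34 members, or 76.47%, against 32.35% of all genes and 57.12% of the genes in the longest of 5 classes of exon length. WT replicate 1 was the lowest WT library in 25 of 34 members, or 73.53%, against 36.45% of all genes and 45.27% of the genes in that longest class. The catalytic subunits of the COMPASS complexes, Kmt2a to Kmt2d, Setd1a and Setd1b, a grouping made after their values were seen, showed this most plainly. Relative to the WT mean their median log2 level was -0.17, 0.06 and 0.11 in WT replicates 1, 3 and 4. In KO it was -0.53 in replicate 2, -0.06 in replicate 3 and -0.53 in replicate 4, so that KO replicate 3 lay inside the WT range. The level in KO replicate 3 over the mean of KO replicates 2 and 4 was 1.56 for Kmt2a, 1.56 for Kmt2e, 1.55 for Kmt2c and 1.53 for Kmt2d. For Kmt5a it was 1.02, so the members did not all share this difference between libraries.

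**Figure D3:**
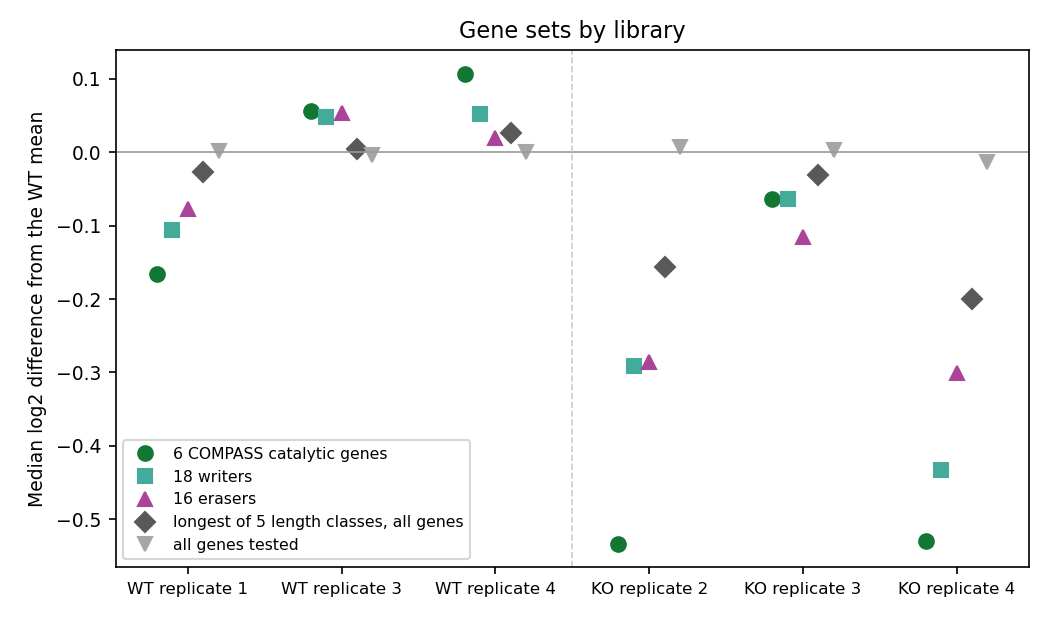
Median log2 difference from the WT mean in each library for the 6 COMPASS catalytic genes, the 18 writers, the 16 tested erasers, the longest length class of all genes tested and all genes tested. KO replicates 2 and 4 are lowest for each of the first 4 sets, the COMPASS genes standing at -0.53 in both, while KO replicate 3 is near WT and all genes stay near 0.

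Without KO replicate 3, edgeR called 8 members lower, namely Kdm2b, Kdm6a, Kmt2a, Kmt2b, Kmt2c, Kmt2e, Setd1a and Setd2, against 3.46% of all genes in that fit. The median of the members was then -0.30. Without a filter on low counts edgeR called 6 members lower (2.76% of all genes), DESeq2 also 6 (4.62%) and limma 2 (3.31%). No alternative called a member higher. Kdm6a was among the members called in each of these fits, and Setd1a was too.

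Members have long transcripts, and long genes as a whole were lower in the knockout. The median exon length was 8304 bases for the tested members and 3781 for all genes tested, and 20 of the 34 members fell in the longest of 5 equal length classes, from 6914 bases upward. Over all genes tested the median log2 fold change went from 0.11 in the shortest class to -0.15 in the longest. In the longest class the 20 members had a median of -0.28. Of these 20 members, 11 had an unadjusted p under 0.05 with a lower level, against 24.4% of all genes in that class. In 5 of the 20 every KO library lay below every WT library, against 25.7% of the class, which is close to the same share. In the class before it, from 4596 to 6913 bases, 10 members had a median of -0.17 against -0.04 for all genes, and in 5 of them the groups stood apart against 18%. No member was in the shortest class.

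The length of a member and its log2 fold change were weakly related. Over the 34 members, which share the 6 libraries, Pearson's r between log2 exon length and log2 fold change was -0.37 and Spearman's rho was -0.33. For the 18 writers r was -0.45, and for the 16 erasers it was -0.16. The longest members, Kmt2c at 20291 bases and Kmt2d at 19931, had log2 fold changes of -0.43 and -0.25. Kdm5b, with 16555 bases, had -0.06, and Setdb2, with 4047 bases, had -0.345, so the order by fold change was not the order by length. After the trend of each library on exon length and GC content was removed, the median of the members was -0.11 against 0.04 for all genes. Of the 34 members 24 were then negative, 8 had an unadjusted p under 0.05 with a lower level and 0 were called. The shares of all genes that were negative, or lower at that unadjusted p, were not computed for this fit. The counts of 24 and 8 therefore have no background beside them. Over all genes 183 were called lower in that fit. Kdm6a then had -0.31, with an adjusted p of 0.0701 in edgeR, and Kmt2a -0.29, with 0.182.

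**Figure D4:**
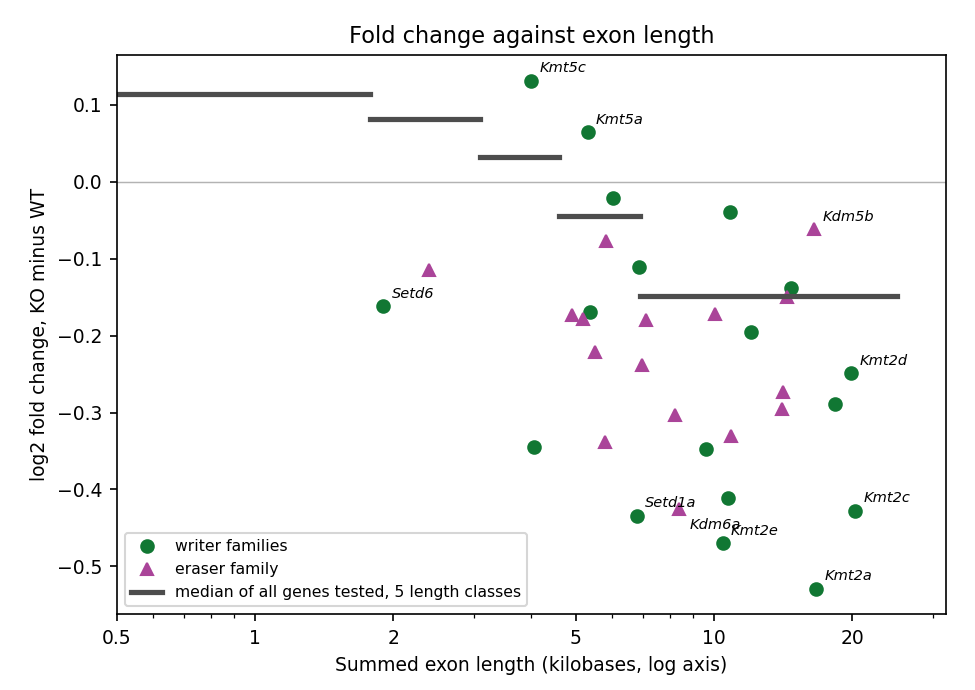
log2 fold change, KO minus WT, of the 34 tested genes against summed exon length (kilobases, log axis), writers as green circles and erasers as purple triangles. Horizontal bars give the median of all genes tested in each of the 5 length classes, from 0.11 to -0.15, with the outer bars cut at the frame or at 25 kilobases, and most members lie below the bar of their own class.

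In the long genes of the whole table, too, KO replicates 2 and 4 were the lowest libraries and KO replicate 3 was the KO library nearest to WT. There KO replicate 3 lay just below the lowest WT library (-0.0304 against -0.027), whereas for the COMPASS catalytic genes it lay inside the WT range. The median log2 level of the longest class relative to the WT mean was -0.03, 0.00 and 0.03 in WT and -0.16, -0.03 and -0.20 in KO replicates 2, 3 and 4. Its part in the values of the members was tested only by the removal of the trend.

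Other genes of the same pathways were described from lists given in full to the same test. Of 17 lysine methyltransferases with other names, such as those of H3K27, H3K79 and H3K9, 0 were called in edgeR, and their median log2 fold change was -0.15. The H3K79 writer Dot1l had -0.38 (adjusted p = 0.0866), Ash1l, an H3K36 writer, -0.52 (adjusted p = 0.102), and Ezh1, a catalytic subunit of Polycomb complex PRC2, -0.21 (adjusted p = 0.166), all in edgeR. Of 9 other demethylases and jumonji genes, 1 rose in edgeR and 0 fell. It was Riox1, a ribosomal protein hydroxylase, whose mean level was 44.3 ± 0.3 CPM in the knockout and 32.9 ± 1.39 CPM in WT (SD, n = 3 each). Riox1 had a log2 fold change of 0.43, with an adjusted p of 0.0358 in edgeR. Jmjd1c, the relative of Kdm3a and Kdm3b, had -0.41, and the H3K9 demethylase Phf2 had -0.24, with adjusted p of 0.121 and 0.203 in edgeR.

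Of 14 COMPASS subunits 13 were tested and 0 were called in edgeR, with a median of -0.06. The catalytic genes of these complexes had a median of -0.39, which was not tested against it, and they are longer, with a median exon length of 14369 bases against 5485. The host cell factor Hcfc1, a subunit of the Setd1a, Setd1b, Kmt2a and Kmt2b complexes, had 369.5, 358 and 383 CPM in WT and 222, 313 and 217 CPM in KO. Its groups stood apart with KO replicate 3 nearest to WT, as in Setd1a, and its log2 fold change was -0.56 (adjusted p = 0.0677 in edgeR). Paxip1 and Bod1l had -0.29 and -0.39, with adjusted p of 0.109 and 0.122 in edgeR. Of 9 PRC2 subunits 0 were called in edgeR and their median was 0.05, with Eed at 0.27 (adjusted p = 0.109), Suz12 at -0.18 (adjusted p = 0.244) and Phf1 at 0.18 (adjusted p = 0.476).

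Of the 12 genes of the Kdm1a complex with CoREST and its Gfi1 recruiters, 1 rose in edgeR and 0 fell, with a median of -0.21. Gfi1, the repressor that brings Kdm1a to its targets in granulocyte precursors, had 46.7, 54.4 and 63.9 CPM in WT and 82.2, 81.4 and 79.5 CPM in KO. The groups stood apart, and its log2 fold change was 0.56 (adjusted p = 0.0432 in edgeR). Gse1 and Zmynd8 had -0.68 and -0.36, with adjusted p of 0.0713 and 0.0967 in edgeR. Gfi1 is also in the list of primary granule genes.

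Of the 8 genes of the Polycomb complex with Kdm2b, 1 fell in edgeR and 0 rose, with a median of -0.02. The X-linked corepressor Bcor had 73.8, 78.99 and 83.7 CPM in WT and 55.5, 59.1 and 49.0 CPM in KO, without overlap. This difference was -0.53 on the log2 scale, with an adjusted p of 0.0318 in edgeR. Usp7 and Bcorl1 had -0.25 and -0.23, with adjusted p of 0.166 and 0.308 in edgeR. Of the 10 genes that act with Setdb1 in silencing, 9 were tested and 0 were called in edgeR, with a median of -0.04 and with Cbx5 at -0.30, Atf7ip at -0.33 and Morc2a at -0.18. Of 13 lysine acetyltransferases 0 were called in edgeR, with a median of -0.21, and Kat6b had -0.57 (adjusted p = 0.0706), Kat7 -0.23 (adjusted p = 0.124) and Kat8 0.25 (adjusted p = 0.154).

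Other differences moved with the groups, and their part in the values of the members was not tested. The summed level of 8 primary granule genes of neutrophil precursors was 5067 to 5360 CPM in WT and 6444 to 7755 CPM in KO, and that of 10 late neutrophil genes was 43580 to 56470 CPM and 65780 to 80890 CPM. Plasma cell genes, 6 in number, summed to 320.0 to 451 CPM in WT and 576.4 to 633.3 CPM in KO, and 9 stem and progenitor genes to 206.5 to 231.8 CPM and 177.3 to 203.8 CPM. The single genes of these lists went both ways, with a median log2 fold change of 0.06 (from -0.99 to 0.90) for the plasma cell genes and 0.02 (from -0.67 to 0.61) for the stem and progenitor genes, of which 5 of 9 were positive. The summed level of 21 immediate early genes, which respond to stimulation within minutes, was 6675 to 8381 CPM in WT and 3034 to 3992 CPM in KO, and 14 of them fell in edgeR. All genes of these 5 lists had counts in every library. The summed levels of monocyte, B cell precursor, mature B cell, erythroid, T and NK cell, skeletal muscle and adipocyte genes overlapped between the groups. Even so, all 10 B cell precursor, 8 mature B cell and 12 erythroid genes had negative log2 fold changes, with medians of -0.57, -0.95 and -0.37. In edgeR 0, 0 and 2 of them were called lower, against 1.52% of all genes. The tested monocyte, T and NK cell, skeletal muscle and adipocyte genes went both ways, with medians of -0.11, -0.11, -1.03 and 0.09. KO replicate 3 was at 7337 CPM for the primary granule genes, in the middle of KO, at 65780 CPM for the late neutrophil genes, the nearest to WT, and at 3070 CPM for the immediate early genes, also in the middle of KO.

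Kdm6a and Kdm5c are known to escape X inactivation, and the labels give no sex. Xist, the RNA of the inactive X chromosome, was at 0.147, 3.50 and 5.05 CPM in WT replicates 1, 3 and 4 and at 6.64, 0.220 and 0.0758 CPM in KO replicates 2, 3 and 4. Y-linked genes were present in all 6 libraries, with Ddx3y between 82.6 and 92.01 CPM. Kdm6a was at 70.8, 76.1 and 74.5 CPM in WT replicates 1, 3 and 4 and at 53.2, 61.0 and 50.8 CPM in KO replicates 2, 3 and 4. When a term separating the libraries above and below 1 CPM of Xist was added to the edgeR model, 0 members were called. Over all genes that model called 133 lower, against 258 without the term. The log2 fold change of Kdm6a stayed at -0.42 in that model, with an adjusted p of 0.0809 in edgeR.

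Some members share bases with a gene on the other strand, and neither labels nor processing notes say whether the counting used strand. The exons of Kdm1b overlap Dek by 505 bases, and Dek had 125942 counts in all against 4269 for Kdm1b. Those of Kdm2b overlap Rnf34 by 627 bases, those of Kmt2e overlap Srpk2 by 972, those of Kdm5a overlap Ccdc77 by 251 and those of Setdb1 overlap Cers2 by 75. Kdm3b overlaps Gm26538 on the other strand by 3468 bases, with 228 counts for Gm26538 against 40023 for Kdm3b. Setd1a shares 3523 exon bases with Gm49388 on its own strand, where a strand setting would not separate the reads. Gm49388 had 10 counts in all against 6984 for Setd1a. The overlaps named here are not all of them. The values of these members are uncertain to that extent.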

How the data were processed

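Poly(A)-selected RNA of 3 WT and 3 KO mouse bone marrow libraries had been counted by the authors, and the deposited table held raw counts per Ensembl gene, not normalized. Per the submitters' processing notes, the tools were STAR 2.5.2b, Trimmomatic 0.36 and, from Subread 1.5.2, featureCounts, on the build GRCm38. Not given in the sources used here: their settings, the annotation release, strand, and the handling of reads with several matches. Libraries were grouped by genotype as labelled. Total counts were 34000323, 40034773 and 40359093 in WT replicates 1, 3 and 4 and 33861440, 36394812 and 39566582 in KO replicates 2, 3 and 4. Each pair of libraries differed by more than counting error, the lowest chi-square per gene being 26.7.

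Of 49315 identifiers, 49056 had a symbol in GENCODE M21. Counts were tested with edgeR 4.0.16 (R 4.3.3) over the whole table (two-sided quasi-likelihood test with robust dispersions, TMM factors, low counts removed by filterByExpr, Benjamini-Hochberg adjustment, threshold 0.05). CPM used TMM-scaled totals, except for Xist (totals alone), and RPKM divided CPM by summed exon length. An exact permutation test of 3 against 3 libraries cannot go below 0.1 and was not used. Scripts were tested on simulated data. The members and lists were chosen with earlier results of these data known. Every member was named, with values per library for those with an unadjusted p under 0.05, the X-linked ones, the most abundant of each class, the longest and the shortest. Of each pathway list the 3 genes with the smallest p were named, and values of other genes were chosen after they were seen. Alternatives were other scalings and filters, each library left out, the replicate number as a block, DESeq2 1.42.0, limma 3.58.1 with quality weights, an Xist covariate, removal of length and GC trends (mgcv 1.9.3), and removal of haemoglobin, mitochondrial and immunoglobulin genes.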

Additional observations from a re-analysis of the deposited data

How the results depend on the processing

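The median log2 fold change of the members kept its sign and moved by less than the spread between replicates under all 16 alternatives, from -0.30 to -0.11. The number of members called lower, 1 in the fit reported, was 6 in DESeq2, 2 in limma, 6 when genes of low counts were kept, 0 with the Xist covariate and 0 with the length and GC trend removed. Over all genes 133 were called lower with the Xist covariate and 183 with the trend removed, against 258 in the fit reported. Leaving out a library gave 0 to 8 calls, 8 without KO replicate 3 and 0 without any other, and Kdm6a was lost in each of those. Over all genes 27, 143 and 24 were called lower without WT replicates 1, 3 and 4. Without KO replicates 2, 3 and 4 these numbers were 367, 604 and 23. Fewer samples enter the fits that leave out a library. The cause of a change in the calls was not tested for any alternative. The median of the writers moved from -0.22 to -0.07 with the trend removed. Writers minus erasers turned from -0.02 to 0.02 (0.024) without the filter, where the barely counted Kdm4d enters the mean. Replicate numbers 3 and 4 occur in both groups, and the deviations of same-numbered libraries correlated at 0.274 and -0.234. Of all pairs of a WT and a KO library, WT replicate 3 and KO replicate 3 had the lowest chi-square per gene, at 30. Whether same-numbered samples share more than the number was not tested. With the replicate block 0 members were called, over all genes 212 rose and 359 fell against 159 and 258 without it.

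The direction of 24 of the 34 members was the same under every alternative, and 10 turned in at least 1. With the length and GC trend removed, Kdm5b was at 0.18, Kdm2a at 0.08 (0.0754), Kdm7a at 0.01 (0.0142), Setd3 at 0.05 (0.0522), Kmt2d at 0.03 (0.0281), Setd1b at 0.0018, Setd7 at 0.13 (0.1275) and Kmt5b at 0.09 (0.0853). Leaving out a library moved Setd3 between -0.0452 and 0.0086 (positive without WT replicate 1 or KO replicate 3), Setd7 between -0.1324 and 0.0235 (positive without KO replicate 4 and without either of WT replicates 3 and 4) and Kdm5b between -0.156 and 0.0452 (positive without WT replicate 3). With the block Setd3 was at 0.0097, and with the Xist covariate Setd7 was at 0.0012. Kmt5a was at -0.0066 with library totals only and Kmt5c at -0.025 with the block. With library totals only the median of all genes was -0.08, and 87 genes were called higher and 403 lower. Kdm4d, with at most 7 counts in a library, did not pass the filter of the fit reported.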
